A study of Mus musculus with 14 samples.

Results

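The 37 genes described here encode the membrane skeleton, surface proteins and transcription regulators of red cell precursors, with the erythropoietin receptor and enzymes of late red cell maturation. They were chosen by name for these roles and matched by gene name in a table of 55335 genes. All 37 were found and all passed the expression filter. By role, 8 belonged to the membrane skeleton or its band 3 anchor, 7 were surface proteins, channels or transporters, 7 were transcription regulators, 1 was the erythropoietin receptor and 14 were late maturation genes or enzymes. RNA was sequenced from marrow cells of mice that carry a Cre recombinase driven by the endothelial Cdh5 promoter and a Cre-dependent tdTomato reporter at Rosa26. All mice shared this genotype, and the sort took tdTomato-positive cells without CD45 or lineage markers. The groups were untreated mice (4 libraries), mice given 500 cGy of total body irradiation from a caesium source (TBI, 5 libraries), mice given 20 µCi of radioimmunotherapy on a non-targeting IgG (IgG RIT, 3 libraries) and mice given 20 µCi of radioimmunotherapy targeted to CD45, with astatine-211 as the radionuclide per the study's title (CD45 RIT, 2 libraries). Treated mice were harvested after 8 days. Ages, and whether libraries came from separate mice, are not given in the sources used here, so p-values measure only the spread between these libraries.

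Red cell precursors build a spectrin and actin lattice under their membrane, which is tied through ankyrin and protein 4.1 to the anion exchanger band 3 and to the Rh complex. The transcription factors GATA1 and KLF1, with TAL1, LMO2 and FOG1, switch on this programme while erythropoietin, signalling through its receptor, keeps the precursors alive. Regulators are most active before the last divisions, whereas transcripts for membrane, haem and clearance proteins persist until the nucleus and organelles are lost.

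The sorted libraries were not endothelial by RNA of Cdh5, the gene whose promoter drives the Cre recombinase. Cdh5 had 0 to 6 counts in untreated libraries, 0 to 5 in TBI and 0 in all RIT libraries. The reporter depends on Cre and is not itself a measure of Cdh5 RNA. The 20 endothelial markers together reached a scaled count (CPM, per the effective library size) of 169 to 207 in untreated, 100 to 153 in TBI, 86.3 to 102 in IgG RIT and 138 and 470 in CD45 RIT libraries. Total counts lay between 16412779 and 31077588, so that 3 counts, taken as the floor of detection, corresponded to 0.0786 to 0.215 CPM. A pair of libraries stood apart. TBI replicate 6 was above every other TBI library for 34 of the 37 members, and CD45 RIT replicate 2 had counts for 17700 genes against 20994 in replicate 1 and at least 21660 in the others. Markers of other cells moved with treatment as well: the 12 neutrophil markers summed to 8960 to 10500 CPM in untreated, 109 to 1030 in TBI, 753 to 963 in IgG RIT and 7.44 and 18.9 in CD45 RIT libraries. The 12 stromal markers summed to 2740 to 7020, 934 to 1980, 436 to 1520, and 55500 and 77000 CPM in the same order, with none at 0 in any library. The 10 macrophage markers summed to 123 to 168, 22.9 to 49.4, 32.5 to 71.1, and 3600 and 3160 CPM. Vcam1, which stromal cells also express, gave 3520 and 2850 CPM of the CD45 RIT sums, while the macrophage receptor gene Csf1r had 2.62 and 2.89 CPM there against 34.5 to 50.7 CPM in untreated libraries and Adgre1 had 0 counts. The part of these shifts in the members' values was not tested. In bulk RNA, a change in the number of cells of a type and a change in RNA per cell cannot be told apart.

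Summed over the members, the level was 9320 to 11200 CPM in untreated libraries, 15300 to 21800 in TBI replicates 1, 3, 4 and 5, 57300 in TBI replicate 6, and 48400 to 66100 in IgG RIT libraries. The 2 CD45 RIT libraries lay on either side of the untreated range, at 39200 and 4280 CPM. The same split ran through single genes: replicate 1 had 30 members above the untreated range and 4 below it, whereas replicate 2 had 6 above and 27 below. In the other treated libraries 28 to 34 members were above that range and 2 to 4 below it. The same counts over all genes were not made, so how far they are particular to the members is not known.

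**Figure D1:**
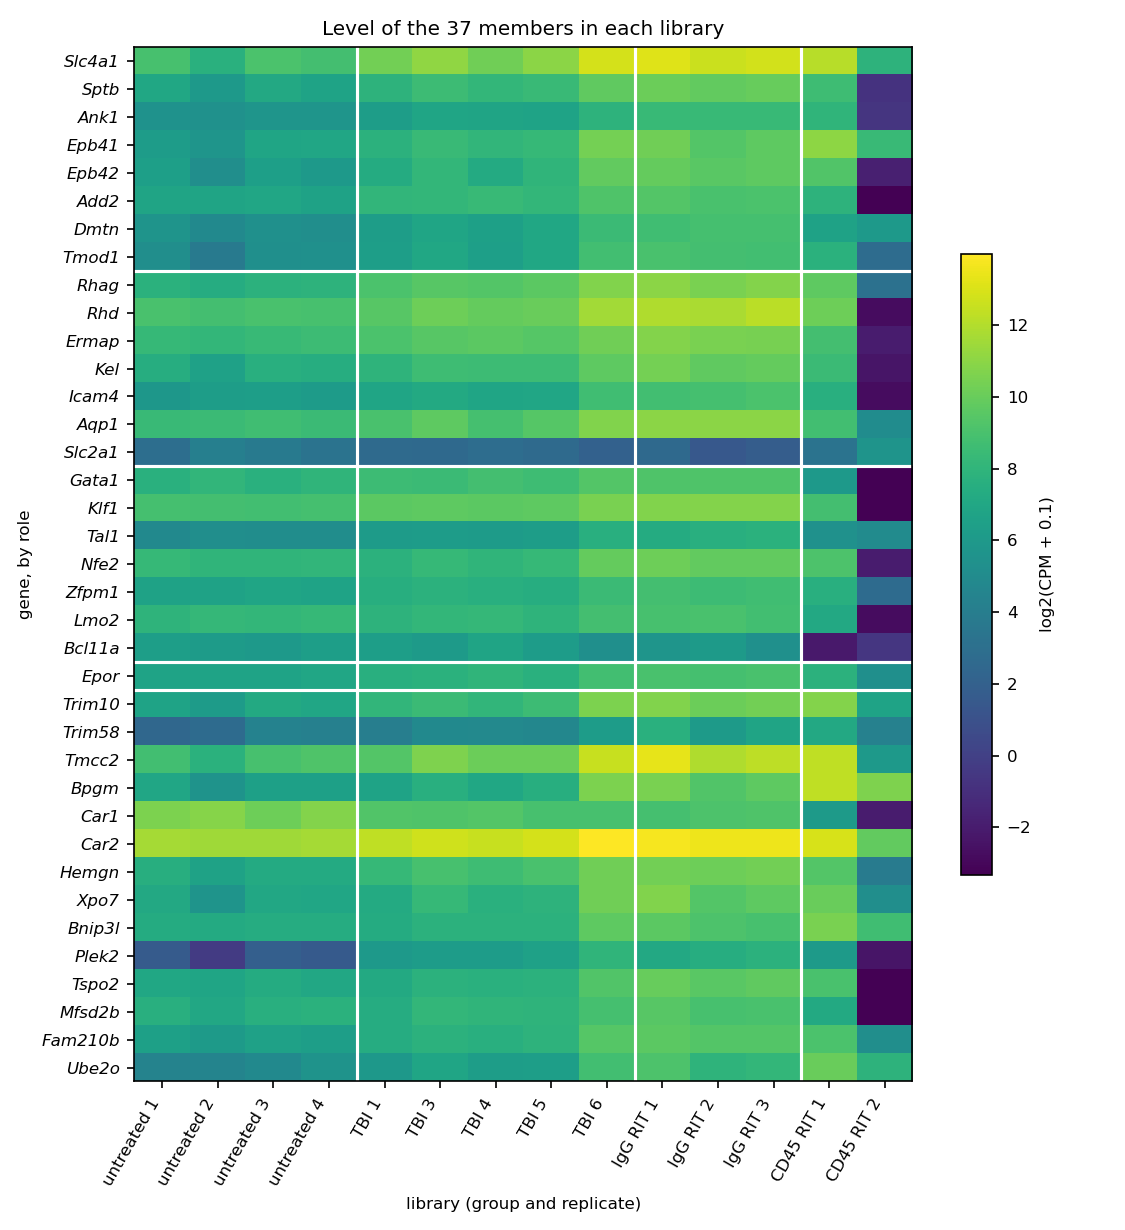
Level of each member (rows, grouped by role) in each of the 14 libraries (columns, grouped by treatment) as log2(CPM + 0.1), with white lines between roles and between groups. The IgG RIT libraries and TBI replicate 6 are brighter than the untreated libraries for most members, and CD45 RIT replicate 2 is dark for 13 members at or under 3 counts.

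**Figure D2:**
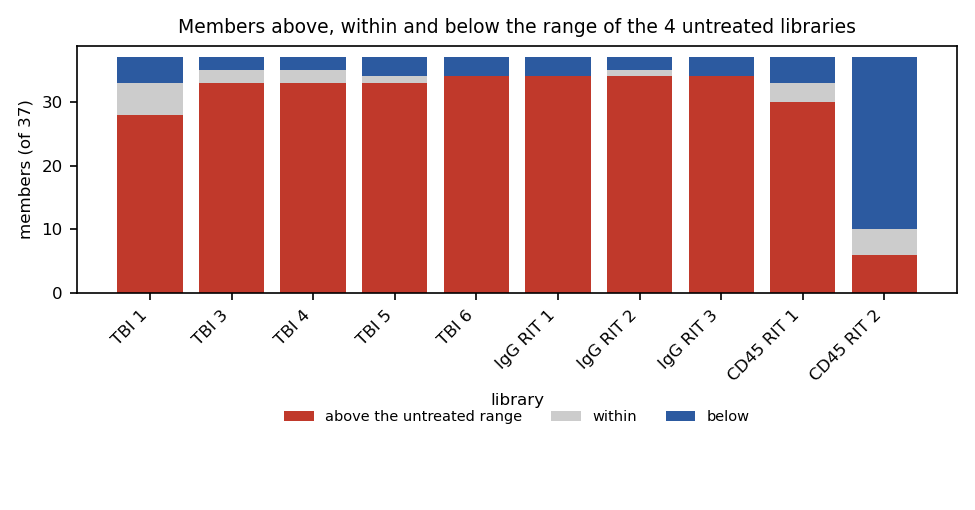
Number of members (vertical axis, of 37) above, within and below the range of the 4 untreated libraries in each treated library (horizontal axis). The count above the range is 28 to 34 in TBI and IgG RIT libraries, 30 in CD45 RIT replicate 1 and 6 in CD45 RIT replicate 2. The same counts over all genes were not made.

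Promoter sequence was examined because GATA1 and KLF1 are known to act through such sites. RefSeq promoter entries (GRCm38.p6) matched 27 of the 37 members by symbol, with 32 promoters in all. In the 250 bases before the start, a GATA motif (AGATAA or TGATAA, both strands; adjacent matches can share 1 base) was found in 12 of the 32 promoters (37.5%), against 16.6% of all 32851 promoters in the table. The CACC-type motif CCNCNCCC was in 65.6% of member promoters and 45.9% of all, the E-box CAGNTG (counted once where it reads the same on both strands) in 46.9% and 44.8%, and the NF-E2 motif GCTGAGTCA in 0 and 0.39%. For 5 members, stretches of 100 bases upstream of the annotated gene are shown with their GATA match in capitals, and Plek2, the member with the largest fold change in TBI and in IgG RIT, is shown for having no GATA match. Reverse-strand matches read TTATCT or TTATCA. A match is a description of these letters, not a bound site.
Klf1 (chr8:84901828-84901927, plus strand): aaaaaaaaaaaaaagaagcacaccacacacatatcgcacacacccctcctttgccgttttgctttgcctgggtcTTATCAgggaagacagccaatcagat
Epor (chr9:21963577-21963676, minus strand): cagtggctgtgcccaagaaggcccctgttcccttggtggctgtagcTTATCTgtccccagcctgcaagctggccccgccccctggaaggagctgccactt
Rhag (chr17:40811026-40811125, plus strand): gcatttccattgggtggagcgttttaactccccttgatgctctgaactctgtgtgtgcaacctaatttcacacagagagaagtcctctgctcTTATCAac
Rhd (chr4:134864436-134864535, plus strand): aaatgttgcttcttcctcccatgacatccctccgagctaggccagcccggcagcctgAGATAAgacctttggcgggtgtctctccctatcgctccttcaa
Kel (chr6:41704340-41704439, minus strand): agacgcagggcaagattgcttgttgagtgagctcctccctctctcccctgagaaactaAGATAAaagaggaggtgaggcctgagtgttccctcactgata
Plek2 (chr12:78906965-78907064, minus strand): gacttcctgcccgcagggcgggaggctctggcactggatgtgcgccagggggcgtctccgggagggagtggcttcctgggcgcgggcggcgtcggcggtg
The GATA match in capitals began 80 bases before the RefSeq start in Klf1, 54 in Epor, 31 in Rhag, 43 in Rhd and 56 in Kel. Kel had a further match, TGATAA, 19 bases before that start. Its last base lies beyond the stretch shown, so it is left in lower case. These 5 genes did not behave alike in CD45 RIT replicate 2, where Klf1 had 0 counts and Rhd 1 count, Kel had 2 counts, and Epor and Rhag stood at 38.7 and 8.52 CPM.

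Each treatment was compared with the same untreated libraries, so the 3 comparisons are not independent. In TBI, 3 of the 37 members were called (edgeR quasi-likelihood test on all 14 libraries, Benjamini-Hochberg adjusted p under 0.05 over 21509 genes), all of them higher, against 4.31% of all genes tested (0.921% higher and 3.38% lower), and 18 had an unadjusted p under 0.05. The libraries did not overlap for 27 members that were higher (6.34% of all genes) and for 2 that were lower (12.8%). The median log2 fold change was 1.48 over the members and -0.16 over all genes. The number of calls moved with the CD45 RIT libraries in the shared fit: with only TBI and untreated libraries 28 members were called, 26 higher and 2 lower, against 17.5% of genes, and without CD45 RIT replicate 1 or replicate 2 alone 27 were called each time, against 11.3% and 11.8%. With any 1 of the 4 untreated libraries left out, 1 was called. Leaving out TBI replicate 6 together with CD45 RIT replicate 2 gave 28 calls, 27 of them higher, against 12% of genes, with a median of 1.12.

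In IgG RIT, 19 of the 37 members were called, all higher, against 16.4% of genes in either direction (5.75% higher and 10.7% lower). The groups did not overlap for 34 members that were higher (15.6% of all genes) and 2 that were lower (27.4%), and the median log2 fold change was 2.7 against -0.42 over all genes. With only IgG RIT and untreated libraries 35 were called, 34 of them higher (35.8% of genes), and without CD45 RIT replicate 2 alone 36 (30.2%). Leaving out any 1 of the untreated libraries, or IgG RIT replicate 1, lowered the count to 11 or 12. In CD45 RIT, 10 members were called, 8 higher and 2 lower, against 33.1% of genes (14.5% higher and 18.6% lower), so that the members' share of calls was near the background, and the median was 0.94 against -0.37 over all genes. With only CD45 RIT and untreated libraries 5 were called, with Epb41, Bpgm, Bnip3l and Ube2o higher and Bcl11a lower (19.9% of genes). Without replicate 1 the count was 27, with 4 higher and 23 lower (48% of genes). Without replicate 2 it was 21, with 18 higher and 3 lower (30.4%). In both of these fits the remaining library is assumed to vary like those of the other groups.

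Several calls lay near the threshold and were lost when 1 library was left out. In TBI the edgeR adjusted p reached 0.0742 for Dmtn and 0.0844 for Plek2 without untreated replicate 2, and 0.0509 for Tal1 without untreated replicate 1. In IgG RIT it reached 0.0848 for Rhag, 0.101 for Bnip3l and 0.0703 for Bpgm without IgG RIT replicate 1, and 0.0545 for Aqp1 without untreated replicate 4. In CD45 RIT it reached 0.104 for Bnip3l without CD45 RIT replicate 1, and 0.102 for Slc4a1 and 0.0788 for Plek2 without untreated replicate 2.

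**Figure D3:**
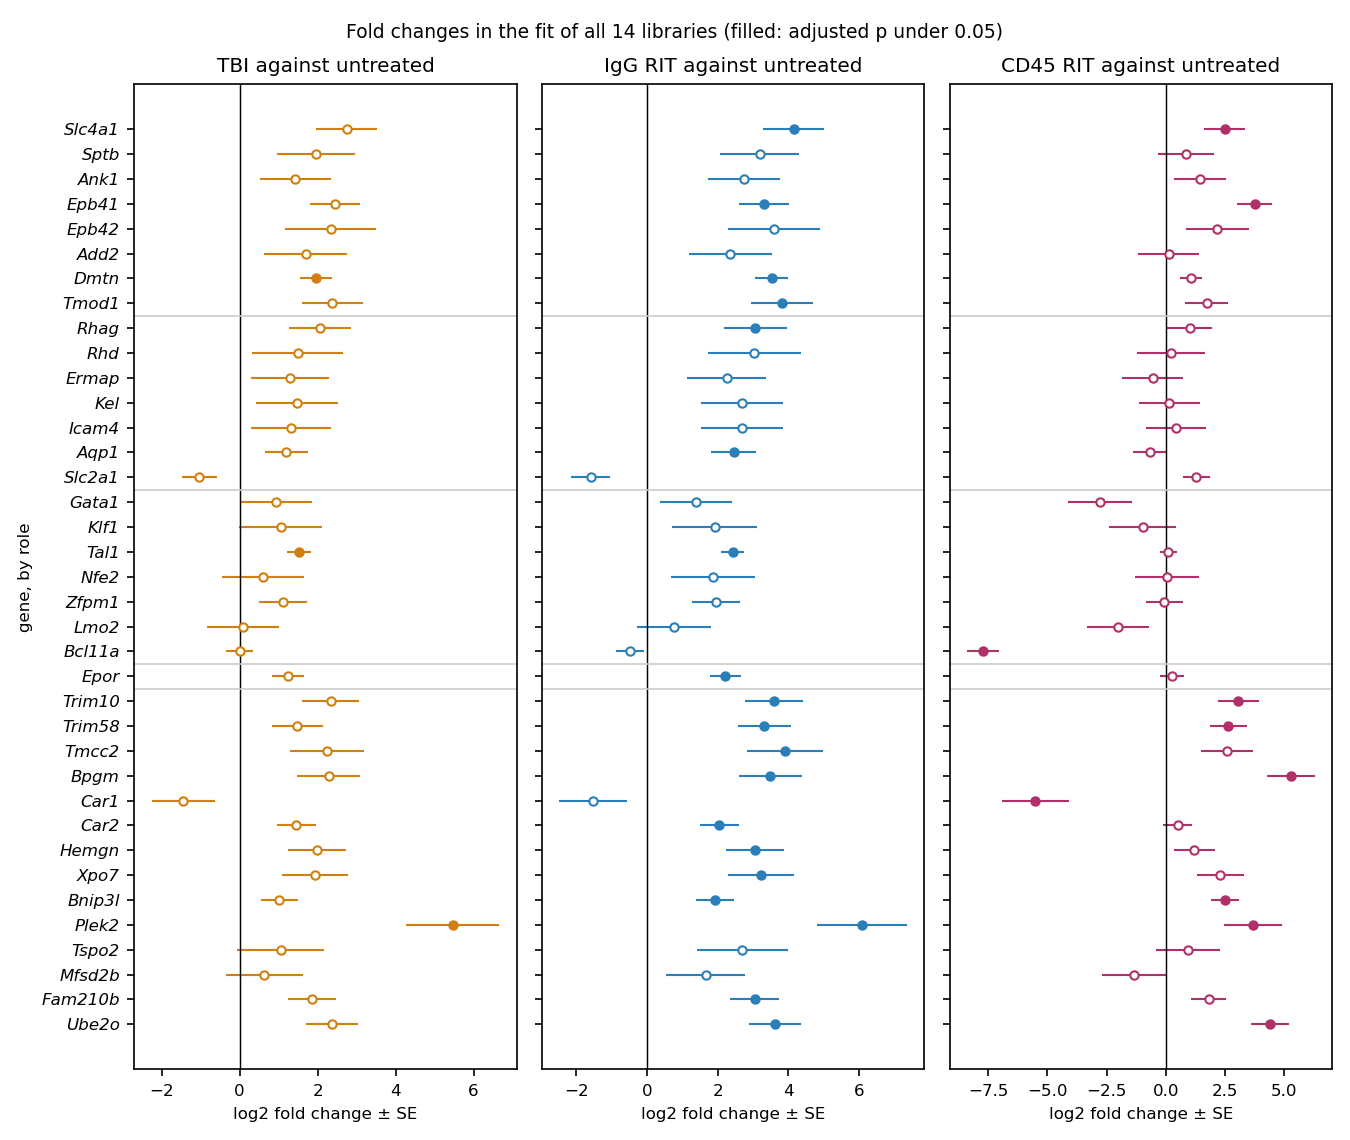
Log2 fold change against untreated with its standard error (horizontal axis) for each member (vertical axis, by role) in TBI, IgG RIT and CD45 RIT, from the fit of all 14 libraries; filled points passed an adjusted p under 0.05. In IgG RIT 19 points are filled, all to the right of 0, and in CD45 RIT 8 lie to the right and Bcl11a and Car1 far to the left.

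All 8 skeleton members were above the untreated range in every TBI and IgG RIT library, against 6.34% and 15.6% of all genes. In TBI, IgG RIT and CD45 RIT 1, 4 and 2 of them were called, against 4.31%, 16.4% and 33.1% of all genes. With only TBI and untreated libraries all 8 were called higher, against 17.5% of genes in either direction. The members called in the fit of all libraries were Dmtn in TBI, Slc4a1, Epb41, Dmtn and Tmod1 in IgG RIT, and Slc4a1 and Epb41 in CD45 RIT. Values below are in the order of the replicate numbers, which are 1, 3, 4, 5 and 6 for TBI.

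Slc4a1, which encodes the band 3 anion exchanger (ENSMUSG00000006574.15, chromosome 11, 102348824 to 102366203, GRCm38), stood at 490, 204, 546 and 460 CPM in untreated libraries and at 1280, 2210, 1230, 2030 and 7550 CPM in TBI. It reached 9240, 6170 and 7240 CPM in IgG RIT, and 4550 and 235 CPM in CD45 RIT. All TBI and IgG RIT libraries were above all untreated ones, and CD45 RIT replicate 2 lay inside the untreated range. The log2 fold change was 2.75 ± 0.78 (SE) in TBI (edgeR adjusted p = 0.0683, and 0.0121 with only the 2 groups), 4.15 ± 0.87 in IgG RIT (adjusted p = 0.00862) and 2.49 ± 0.88 in CD45 RIT (adjusted p = 0.0458). The CD45 RIT call rested on replicate 1, since without it the log2 fold change was -0.87, and it was 1.73 and not called without scaling factors.

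Epb41 encodes protein 4.1, which joins spectrin and actin to the membrane. It was at 75, 52.6, 115 and 119 CPM in untreated, 226, 335, 273, 311 and 1300 CPM in TBI, and 1220, 642 and 850 CPM in IgG RIT libraries. CD45 RIT replicate 1 had 2110 CPM, above all other libraries, and replicate 2 had 338 CPM, still above all untreated libraries. Epb41 was thus one of the members that kept to one side of the untreated range in both CD45 RIT libraries, with a log2 fold change of 3.76 ± 0.75 (edgeR adjusted p = 0.00282) and of 1.89 without replicate 1 (adjusted p = 0.0493). In IgG RIT it rose by 3.32 ± 0.71 (adjusted p = 0.00924), and in TBI the value was 2.44 ± 0.64 (adjusted p = 0.0531, and 0.015 with only the 2 groups).

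Dmtn, encoding the actin-bundling protein dematin, was at 48.9, 29.4, 40.7 and 37.7 CPM in untreated, 79.7, 116, 92 and 125 CPM in the first 4 TBI libraries and 351 CPM in TBI replicate 6. The IgG RIT libraries were close together at 420, 470 and 472 CPM, above all others, and the CD45 RIT libraries at 101 and 63.8 CPM were just above the untreated ones. Dmtn rose by 1.96 ± 0.41 log2 units in TBI (edgeR adjusted p = 0.019) and by 3.53 ± 0.46 in IgG RIT (adjusted p = 0.00184). Tmod1, which encodes the actin-capping tropomodulin, rose by 3.81 ± 0.88 in IgG RIT (adjusted p = 0.0137), from 14.2 to 40.5 CPM in untreated to 431 to 508 CPM. Its values in CD45 RIT were 213 and 7.02 CPM, on either side of the untreated libraries. Tmod1 overlaps Tstd2 on the other strand, which had up to 4158 counts, and without knowing whether strand was counted its reads cannot be fully separated.

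The other 4 skeleton genes were not called in any comparison with untreated in the fit of all libraries: Sptb (beta-spectrin), Ank1 (ankyrin), Epb42 (protein 4.2) and Add2 (beta-adducin). Their log2 fold changes were 1.42 to 2.33 in TBI and 2.36 to 3.60 in IgG RIT, and all TBI and IgG RIT libraries were above all untreated ones. Among skeleton genes, they set the CD45 RIT libraries furthest apart. Sptb had 6488 counts in replicate 1 and 10 in replicate 2, Ank1 4306 and 11, Epb42 10363 and 4, and Add2 3922 and 0. Epb41 and Dmtn, by contrast, had 338 and 63.8 CPM in replicate 2.

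Among surface proteins, 6 of the 7 were above the untreated range in every TBI and IgG RIT library, and the glucose transporter Slc2a1 was below it. Over all genes, 6.34% in TBI and 15.6% in IgG RIT were above in every library, and 12.8% and 27.4% below. In the fit of all libraries 0 of the 7 were called in TBI, 2 rose in IgG RIT (Rhag and Aqp1) and 0 were called in CD45 RIT, with 2, 6 and 1 at an unadjusted p under 0.05. The shares called over all genes were 4.31%, 16.4% and 33.1%. With only TBI and untreated libraries all 7 were called, 6 higher and Slc2a1 lower, against 17.5% of genes. Rhag, the Rh-associated glycoprotein, was at 215, 169, 224 and 239 CPM in untreated, 545, 717, 669, 784 and 1690 CPM in TBI, and 2030, 1490 and 1780 CPM in IgG RIT. CD45 RIT libraries had 844 and 8.52 CPM. The IgG RIT rise was 3.06 ± 0.89 log2 units (edgeR adjusted p = 0.0351), and the CD45 RIT value was 1.01 ± 0.94 (0.415), turning to -4.65 without replicate 1.

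Aqp1, the red cell water channel, was 336 to 416 CPM in untreated, 472 to 1710 CPM in TBI and 2010, 2060 and 2010 CPM in IgG RIT libraries, with 431 and 33.4 CPM in CD45 RIT. It rose by 2.45 ± 0.63 in IgG RIT (edgeR adjusted p = 0.0219) and was 1.20 ± 0.56 in TBI (adjusted p = 0.284, and 0.0368 with only the 2 groups). Without TBI replicate 6 the TBI value was 0.77. Icam4, the Landsteiner-Wiener blood group adhesion molecule, ran from 57.6 to 84.7 CPM in untreated, 117 to 410 CPM in TBI and 426 to 540 CPM in IgG RIT, and had 198 CPM and then 1 count in the CD45 RIT libraries. The antisense gene Gm47079, which overlaps Icam4, had up to 10409 counts, so the Icam4 values are uncertain. Rhd, Ermap and Kel, which encode the Rh, Scianna and Kell blood group proteins, had TBI log2 fold changes of 1.49, 1.29 and 1.46 and IgG RIT values of 3.04, 2.25 and 2.69, none called in the fit of all libraries. Rhd and Rhag are related in sequence, and how shared reads were assigned is not given in the sources used here.

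Slc2a1 went the other way. It was low, at 7.65, 17.5, 14.1 and 9.53 CPM in untreated, 6.16, 6.05, 7.35, 6.13 and 4.09 CPM in TBI, and 6.08, 2.59 and 3.42 CPM in IgG RIT libraries. CD45 RIT had 9.76 and 50 CPM, so that replicate 2, low for most members, was the highest library for Slc2a1. The log2 fold change was -1.03 ± 0.46 in TBI (edgeR adjusted p = 0.261), -1.60 ± 0.56 in IgG RIT (adjusted p = 0.0685) and 1.29 ± 0.58 in CD45 RIT (adjusted p = 0.101). Against IgG RIT, Slc2a1 was the single member called higher in CD45 RIT, by 2.89 ± 0.64 (adjusted p = 0.00415). That call rested on replicate 2: without it the value was 1.05 (adjusted p = 0.145), and against untreated it turned to -0.35. With only CD45 RIT and IgG RIT libraries it was 2.86 (adjusted p = 0.118). The 12 stromal markers summed to 55500 and 77000 CPM in those 2 libraries, and their part in this value was not tested.

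Of the 7 transcription regulators, 1 was called in TBI and 1 in IgG RIT (Tal1 in both, higher), and 1 in CD45 RIT (Bcl11a, lower), against 4.31%, 16.4% and 33.1% of all genes. With only the 2 groups compared, 4 of the 7 were called in TBI and 6 in IgG RIT, all higher, against 17.5% and 35.8% of genes. Their median log2 fold change was 0.94 in TBI, 1.87 in IgG RIT and -0.98 in CD45 RIT, while that of the 8 skeleton genes was 2.15, 3.43 and 1.59. No test compared the classes.

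Gata1, the master regulator of erythroid genes (ENSMUSG00000031162.14, chromosome X, 7959260 to 7978071), was at 200, 267, 200 and 260 CPM in untreated, 378, 362, 450, 389 and 643 CPM in TBI, and 604, 604 and 611 CPM in IgG RIT. It was at 67.5 CPM in CD45 RIT replicate 1 and had 0 counts in replicate 2, where 3 counts would be 0.144 CPM. TBI and IgG RIT libraries were all above, and both CD45 RIT libraries below, all untreated libraries. The fold changes did not pass in the fit of all libraries, at 0.94 ± 0.92 in TBI (edgeR adjusted p = 0.688), 1.39 ± 1.02 in IgG RIT (0.369) and -2.78 ± 1.35 in CD45 RIT (0.126). With only the 2 groups they passed in TBI (1.09, edgeR adjusted p = 0.00963) and IgG RIT (1.68, 5.46e-05) but not in CD45 RIT. Without CD45 RIT replicate 2, which leaves a single library in that group, the Gata1 value in CD45 RIT was -1.81.

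Klf1, the activator of globin and membrane genes, varied little among untreated and among IgG RIT libraries. It was at 467, 448, 435 and 474 CPM in untreated, 777, 840, 790 and 827 CPM in the first 4 TBI libraries with 1490 CPM in replicate 6, and 1640, 1740 and 1770 CPM in IgG RIT. CD45 RIT replicate 1, at 462 CPM, was inside the untreated range, and replicate 2 had 0 counts. In the fit of all libraries the log2 fold changes were 1.05 ± 1.07 in TBI (edgeR adjusted p = 0.708) and 1.91 ± 1.20 in IgG RIT (0.288), and with only the 2 groups 1.20 (adjusted p = 0.00973) and 2.20 (3.46e-06). Lmo2, the bridging partner of TAL1, was not called against untreated in the fit of all libraries: it was 249 to 312 CPM in untreated, 229 to 449 CPM in TBI, 424 to 509 CPM in IgG RIT, and 141 CPM and 1 count in CD45 RIT.

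Tal1 encodes the bHLH partner of GATA1. Its values were 29.7, 37.6, 35.4 and 36.1 CPM in untreated, 73.5, 77.3, 73.8, 79.9 and 192 CPM in TBI, and 158, 191 and 210 CPM in IgG RIT. CD45 RIT had 43.1 and 31.9 CPM, near the untreated level in both libraries. Tal1 rose by 1.52 ± 0.30 in TBI (edgeR adjusted p = 0.0146) and by 2.42 ± 0.33 in IgG RIT (adjusted p = 0.00184), and in CD45 RIT it fell by 2.31 ± 0.43 against IgG RIT (adjusted p = 0.00139).

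Bcl11a, which represses embryonic and foetal globin genes and also acts in B cell progenitors, was the regulator that passed as lower. It was at 84.8, 71.4, 64.4 and 84.2 CPM in untreated, 85.1, 70.5, 108, 76.9 and 39.7 CPM in TBI and 52.2, 69.3 and 40.7 CPM in IgG RIT, and had 2 and 12 counts (0.122 and 0.577 CPM) in CD45 RIT. In CD45 RIT it fell by 7.71 ± 0.68 log2 units (edgeR adjusted p = 1.24e-05) and was the only regulator that was lower in replicate 1 than in replicate 2. In TBI the value was 0.00 ± 0.34 and in IgG RIT -0.49 ± 0.39, neither called. The 8 B lineage markers summed to 489 to 1680 CPM in untreated and 537 and 504 CPM in CD45 RIT, with 2 and 3 of them at 0 there. Their part was not tested.

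Zfpm1, encoding the GATA1 cofactor FOG1, was 99.7 to 114 CPM in untreated, 179 to 362 CPM in TBI, 376 to 442 CPM in IgG RIT, and 196 and 6.59 CPM in CD45 RIT. Its log2 fold changes of 1.11 ± 0.61, 1.95 ± 0.68 and -0.06 ± 0.77 were not called. Nfe2, a regulator of globin and platelet genes, was 255 to 303 CPM in untreated and 227 to 308 CPM in TBI replicates 1, 3, 4 and 5. It was at 949 CPM in TBI replicate 6, near the 892 to 1170 CPM of IgG RIT. The TBI log2 fold change of Nfe2 was 0.60 ± 1.05, not called, and 0.03 without replicate 6.

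Epor, the erythropoietin receptor, was at 106, 105, 104 and 121 CPM in untreated, 194, 211, 254, 205 and 422 CPM in TBI, 529, 480 and 512 CPM in IgG RIT, and 223 and 38.7 CPM in CD45 RIT. The first 3 groups did not overlap, and the CD45 RIT libraries lay above and below the untreated ones. Epor rose by 2.22 ± 0.44 in IgG RIT (edgeR adjusted p = 0.007), was 1.24 ± 0.40 in TBI (0.103, and 0.00713 with only the 2 groups) and fell by 1.95 ± 0.56 in CD45 RIT against IgG RIT (0.0171).

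**Figure D4:**
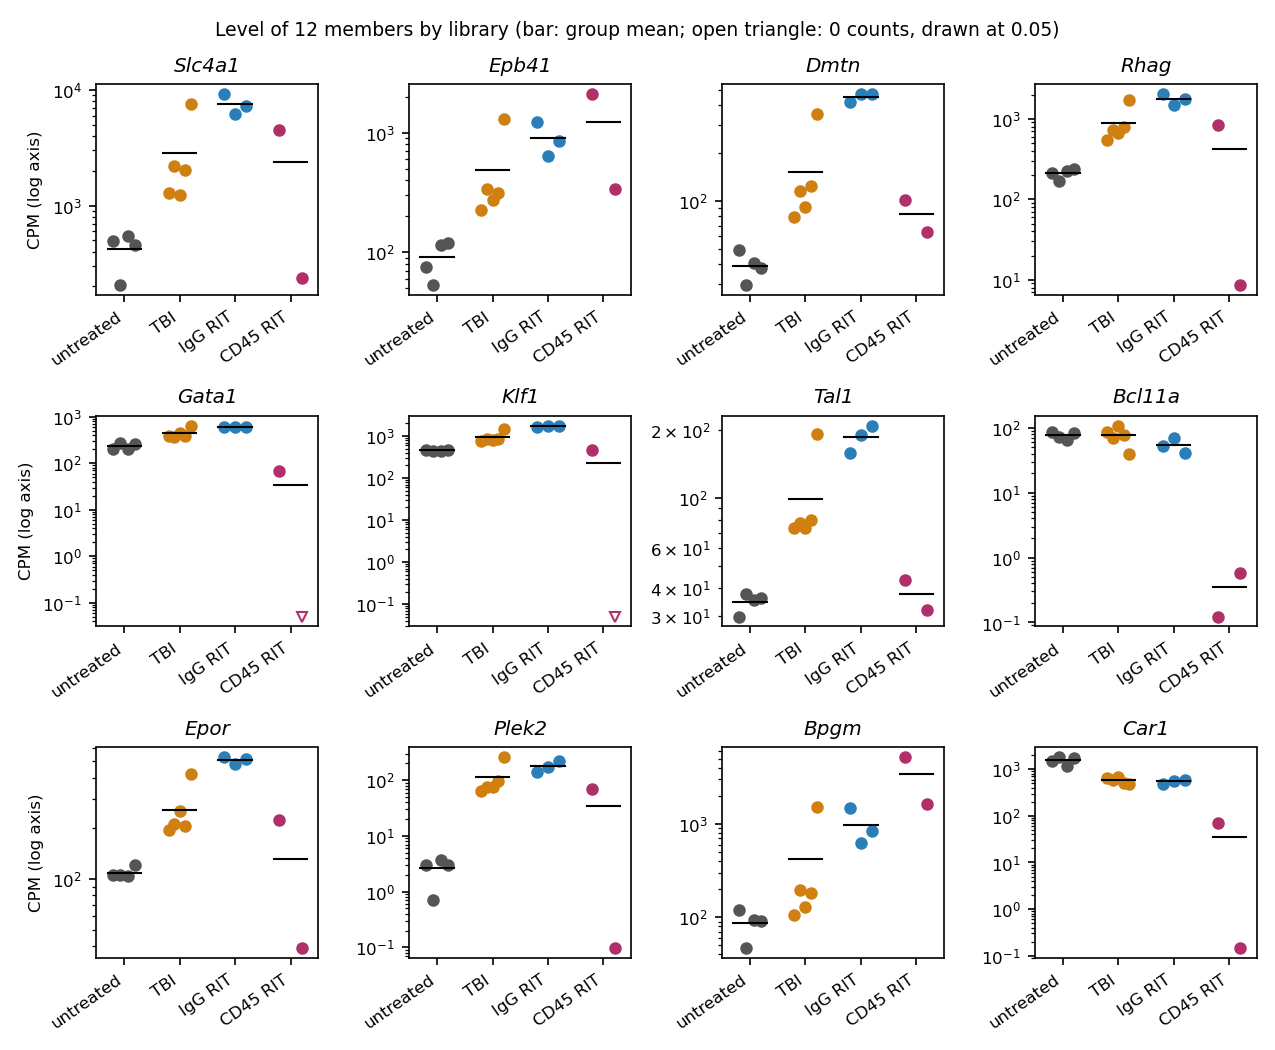
CPM on a log axis for 12 members in each library, by group, with a bar at the group mean and an open triangle for 0 counts. TBI replicate 6 is the high point of its group in most panels, and Gata1 and Klf1 have 0 counts in CD45 RIT replicate 2 while Bpgm and Epb41 are above the untreated libraries in both CD45 RIT libraries.

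Of the 14 late maturation genes, the largest of the classes, 1 was called in TBI, 11 in IgG RIT and 7 in CD45 RIT (6 higher, 1 lower), against 4.31%, 16.4% and 33.1% of all genes. With only the 2 groups compared, 8 were called in TBI (7 higher, 1 lower) and 14 in IgG RIT (13 higher, 1 lower), against 17.5% and 35.8% of genes. Plek2, a pleckstrin family protein of erythroblast enucleation, had the largest fold change of the members in TBI and in IgG RIT, but not in CD45 RIT. It was at 3.07, 0.718, 3.74 and 2.95 CPM in untreated libraries, 65.3, 76, 75.8, 97.6 and 260 CPM in TBI, and 143, 173 and 220 CPM in IgG RIT. All irradiated libraries of these 2 groups were far above all untreated ones. CD45 RIT had 68.2 CPM and 2 counts. Plek2 rose by 5.46 ± 1.20 in TBI (edgeR adjusted p = 0.0248), by 6.09 ± 1.27 in IgG RIT (0.00857) and by 3.70 ± 1.22 in CD45 RIT (0.0344), the last resting on replicate 1. Per 1000 Klf1 counts, Plek2 had 1.60 to 8.59 counts in untreated and 84.1 to 175 in TBI, and those ranges did not overlap.

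Bpgm, which makes the haemoglobin effector 2,3-bisphosphoglycerate, was at 119, 46.4, 92.4 and 92.2 CPM in untreated, 106, 197, 130 and 183 CPM in TBI replicates 1, 3, 4 and 5, and 1510 CPM in TBI replicate 6. IgG RIT libraries had 1480, 628 and 831 CPM. CD45 RIT libraries had the highest values, 5210 and 1630 CPM. Bpgm rose by 3.49 ± 0.90 in IgG RIT (edgeR adjusted p = 0.022) and by 5.29 ± 1.00 in CD45 RIT (0.00197), and by 3.01 ± 0.87 in CD45 RIT against TBI (0.0173). In TBI the value was 2.28 ± 0.80 (0.14), and 0.81 without replicate 6.

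Ube2o, the ubiquitin ligase that clears ribosomes from reticulocytes, was at 21.3 to 46.8 CPM in untreated, 59.8 to 440 CPM in TBI, 584, 247 and 277 CPM in IgG RIT and 1040 and 233 CPM in CD45 RIT. It rose by 3.62 ± 0.74 in IgG RIT (edgeR adjusted p = 0.00792) and by 4.41 ± 0.80 in CD45 RIT (0.00152). Bnip3l, the receptor for mitochondrial clearance, was 152 to 172 CPM in untreated, 161 to 228 CPM in TBI replicates 1, 3, 4 and 5, 826 CPM in replicate 6, and 792, 570 and 499 CPM in IgG RIT. In CD45 RIT it had 1440 and 409 CPM, both above all untreated libraries. Bnip3l rose by 1.92 ± 0.54 in IgG RIT (0.0311) and by 2.50 ± 0.59 in CD45 RIT (0.00704). Without CD45 RIT replicate 1 the CD45 RIT values were 2.94 for Ube2o and 1.31 for Bnip3l. With Epb41 and Dmtn, these 3 enzymes and receptors were the 5 members whose CD45 RIT libraries were both above all untreated ones (17.5% of all genes). Bcl11a, Car1, Gata1 and Lmo2 were the 4 below (29.8%).

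Car1 and Car2, related carbonic anhydrases, parted. Car1 was at 1530, 1820, 1150 and 1780 CPM in untreated, 636, 601, 668, 503 and 488 CPM in TBI, 479, 569 and 597 CPM in IgG RIT, and 68.8 CPM and 3 counts in CD45 RIT. Every treated library was below every untreated one. The log2 fold change was -1.44 ± 0.81 in TBI (edgeR adjusted p = 0.392, and 0.000751 with only the 2 groups). It was -1.52 ± 0.96 in IgG RIT (0.294, and 0.00109 with only the 2 groups) and -5.51 ± 1.42 in CD45 RIT (0.0113). With only CD45 RIT and untreated libraries Car1 was not called. Car2 was 2890 to 3270 CPM in untreated, 5140 to 16300 CPM in TBI, 12000 to 13800 CPM in IgG RIT, and 7800 and 911 CPM in CD45 RIT, and rose in IgG RIT by 2.04 ± 0.55 (0.0258). Within single libraries, Car1 counts per 1000 Car2 counts were 399 to 628 in untreated, 29.9 to 124 in TBI, 34.7 to 49.6 in IgG RIT, and 8.82 and 0.158 in CD45 RIT. Per kilobase the 2 genes led the members in untreated libraries, at 1270 CPM per kb for Car2 and 1260 for Car1, and Car1 ranked 10 of 37 in IgG RIT and 27 in CD45 RIT.

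Of the remaining late genes, Trim10 and Trim58 rose in IgG RIT (3.60 and 3.32) and in CD45 RIT (3.07 and 2.65). The CD45 RIT calls rested on replicate 1, since replicate 2 was inside the untreated range for both, and without replicate 1 the values were -0.11 and 0.62. Trim58 encodes a ubiquitin ligase that aids loss of the nucleus. Tmcc2, Hemgn, Xpo7 and Fam210b rose in IgG RIT by 3.90, 3.05, 3.23 and 3.05 and were 2.57, 1.20, 2.30 and 1.81 in CD45 RIT, not called. Xpo7 encodes a nuclear exporter of late erythroblasts, and its reads overlap the antisense gene Dok2, with up to 1008 counts. Tspo2 and Mfsd2b, a membrane transporter of sphingosine 1-phosphate, were not called against untreated, with IgG RIT values of 2.7 and 1.66. Both had 0 counts in CD45 RIT replicate 2, after 8476 and 2409 in replicate 1.

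The balance between members was followed inside single libraries, where depth and scaling cancel. Ratios are compared between libraries and not between genes, since they take no account of gene length. Per 1000 Slc4a1 counts, Gata1 had 366 to 1310 counts in untreated, 85.2 to 364 in TBI, 65.4 to 97.8 in IgG RIT, and 14.8 and 0 in CD45 RIT libraries. Klf1 had 797 to 2190, 197 to 640, 177 to 282, and 102 and 0. For Gata1 and Klf1 the TBI libraries were thus all below the untreated ones. Bpgm was higher in CD45 RIT, with 169 to 243 in untreated, 82.7 to 200 in TBI, 102 to 161 in IgG RIT, and 1150 and 6970 in CD45 RIT. Epb41 had 153 to 259, 152 to 221, 104 to 132, and 465 and 1440. Gata1 per 1000 Klf1 counts was 427 to 596 in untreated, 431 to 569 in TBI, 346 to 369 in IgG RIT and 146 in CD45 RIT replicate 1, and it is not defined in replicate 2, where both genes had 0 counts.

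**Figure D5:**
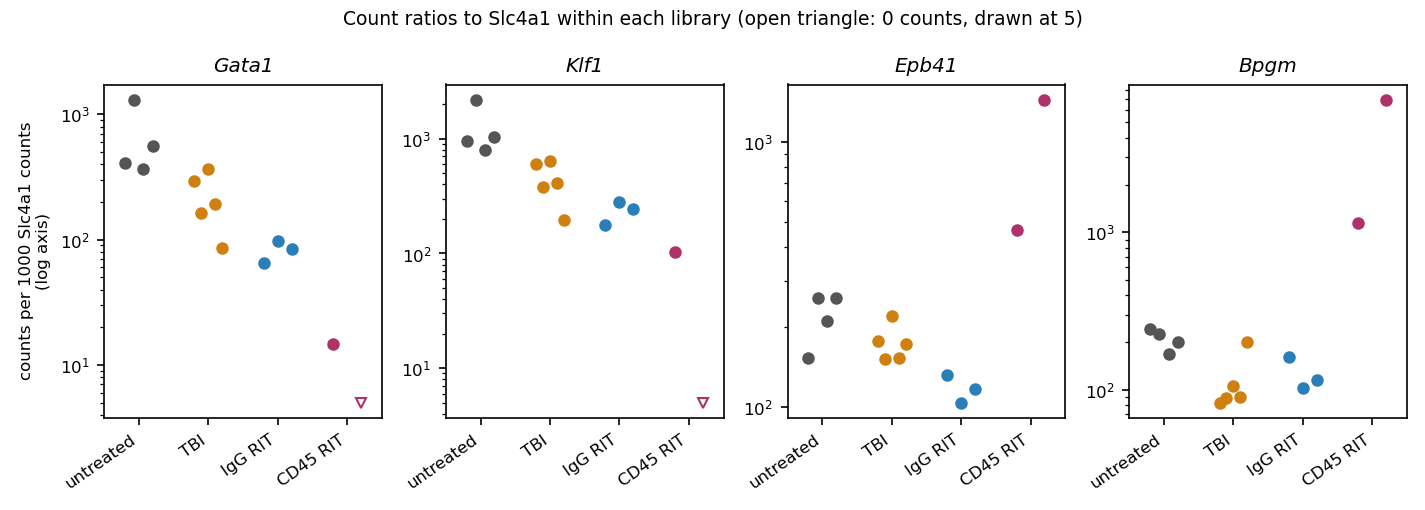
Counts of Gata1, Klf1, Epb41 and Bpgm per 1000 Slc4a1 counts (log axis) in each library, by group, with an open triangle for 0 counts. Gata1 and Klf1 step down from untreated to IgG RIT and CD45 RIT, while Epb41 and Bpgm are highest in the 2 CD45 RIT libraries.

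As a share of the members' summed CPM, the regulators made up 13.6% to 15.9% in untreated, 7.21% to 12.8% in TBI, 6.91% to 9.04% in IgG RIT, and 3.77% and 0.917% in CD45 RIT libraries. Late maturation genes made up 56.5% to 61.2% in untreated, 52.6% to 55% in TBI, 46.9% to 53.2% in IgG RIT, and 65.2% and 81% in CD45 RIT, so that the TBI and IgG RIT libraries were below and the CD45 RIT libraries above the untreated range. Car1 and Car2 weighed heavily in that share: in untreated replicate 1 they had 1530 and 3260 of the 6380 CPM of the class. In IgG RIT replicate 1 they had 479 and 13800 of 35200 CPM. The median log2 fold change of the class in IgG RIT was 3.14, against 2.7 over all members, so the share does not follow its single genes. Members were also set against a list of globin and haem synthesis genes, which summed to 7860 to 13500 CPM in untreated and 62700 to 275000 CPM in CD45 RIT. Per 100 CPM of that list the members had 74.8 to 119 CPM in untreated, 27.4 to 70.5 in TBI, 30.6 to 37.1 in IgG RIT, and 14.3 and 6.83 in CD45 RIT. In CD45 RIT replicate 2 the sum of that list was 62700 CPM, above the untreated range, although 1 of its genes was at 0. The members' sum there was 4280 CPM, below its untreated range of 9320 to 11200 CPM. Both sums are weighted to their most abundant genes.

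Other genes of the pathway were taken from lists of 20 membrane and surface genes, 24 regulators and 23 late maturation genes. Over all genes tested, 4.31% were called in TBI, 16.4% in IgG RIT and 33.1% in CD45 RIT. Of the membrane genes, 3 rose in TBI, 7 rose and 3 fell in IgG RIT, and 5 rose and 1 fell in CD45 RIT, where the share was near that of all genes. Gypc, encoding a glycophorin bound to protein 4.1, rose in all 3, by 1.68 ± 0.40, 2.77 ± 0.45 and 1.46 ± 0.48 (edgeR adjusted p = 0.0352, 0.00316 and 0.0338). Of the regulators, 0 rose and 1 fell in TBI, 6 rose and 2 fell in IgG RIT, and 3 rose and 4 fell in CD45 RIT, again a share near that of all genes. Gata2, the GATA factor of stem cells and early progenitors, fell by 2.07 ± 0.40 in TBI (0.0157). Gata2 also fell by 4.48 ± 0.55 in IgG RIT (0.00184) and had 0 counts in both CD45 RIT libraries against 4304 to 9223 in untreated. Foxo3, a factor of late erythroid maturation, rose in IgG RIT (2.14 ± 0.42, 0.00691) and in CD45 RIT (1.41 ± 0.46, 0.0331). Of the late genes, 1 rose in TBI, 16 in IgG RIT and 10 in CD45 RIT, where 1 fell. The medians of the 3 lists were 1.73, 0.13 and 2.42 in IgG RIT, against -0.42 over all genes.

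Between the treatments, 8 of the 37 members were called in CD45 RIT against IgG RIT, against 37.7% of all genes (20.2% higher and 17.5% lower). Dmtn, Aqp1, Gata1, Tal1, Bcl11a, Epor and Car1 were lower and Slc2a1 was higher. Gata1 fell by 4.17 ± 1.48 (edgeR adjusted p = 0.043) and Aqp1 by 3.13 ± 0.85 (0.0128). Both CD45 RIT libraries were below all IgG RIT libraries for 28 members (29.6% of genes) and above them for 2, Slc2a1 and Bpgm (21.7%). With only these 2 groups 3 were called, Dmtn, Tal1 and Bcl11a, all lower (12.9% of genes). The 14 members called without CD45 RIT replicate 2 were all lower (35% of genes), and without replicate 1 there were 33 calls, 32 of them lower (51.2%). Against TBI, 6 members were called in CD45 RIT (38.6% of genes, 19.6% higher and 19% lower): Slc2a1, Bpgm and Ube2o were higher, and Tal1, Bcl11a and Car1 lower. Without scaling factors this split was 2 higher and 7 lower. All genes moved the same way, from 4225 higher and 4083 lower to 2994 higher and 5922 lower. With only the 2 groups, Slc2a1 was called higher and Bcl11a lower (30.7% of genes), and without CD45 RIT replicate 2 the Slc2a1 call was lost (0.59, adjusted p = 0.389). Without replicate 1 there were 31 calls (50.9% of genes), and without replicate 2 there were 8 (34.6%).

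In IgG RIT against TBI, edgeR called 0 of the 37 members and DESeq2 1, with 4 at an unadjusted p under 0.05, against 0.242% of genes (0.0697% higher and 0.172% lower). The median log2 fold change was 1.20, and 14 members had every IgG RIT library above every TBI library (8.37% of genes) and 0 had every one below (8.44%). With only these 2 groups 0 were called (4.72% of genes), and without CD45 RIT replicate 2 there were 9 (8.05%). Without TBI replicate 6, 5 members were called higher in IgG RIT: Dmtn, Tal1, Bpgm, Bnip3l and Ube2o (9.44% of genes). Without TBI replicate 6 and CD45 RIT replicate 2, 34 were called, all higher, with a median of 1.78 (23.5% of genes). The library numbers given in the labels were below 10 for every untreated library and for TBI replicates 1, 3, 4 and 5. TBI replicate 6 and the 5 RIT libraries had numbers of 10 or more, and what the numbers stand for is not stated. Without TBI replicate 6, TBI against untreated gave 3 calls among the members, the same number as in the fit of all libraries, where 4.31% of genes were called. That fit without replicate 6 kept the RIT libraries, and no fit was made of the libraries with numbers below 10 alone. For RIT against untreated, library number and treatment cannot be told apart.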

How the data were processed

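The authors deposited 1 table of raw counts per gene, without normalization as far as the values show, for 14 libraries made by SMART-Seq v4 amplification and Nextera XT tagmentation, per the labels' protocols. Per the submitters' processing notes, STAR 2.7.7a, FastQC 0.11.9 and edgeR 3.36.0 were used and the build was hg38, although the gene identifiers are of mouse. The counter, the use of strand and the treatment of shared reads are not given in the sources used here. Coordinates equal those of GENCODE M21 (GRCm38) for all 54587 matched identifiers.

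The counts were fitted in R 4.3.3 with edgeR 4.0.16: filterByExpr (minimum count 10, minimum total 15), TMM factors, 1 coefficient per group over all 14 libraries, robust glmQLFit and glmQLFTest, 6 contrasts, and Benjamini-Hochberg adjustment over 21509 genes. A gene with an adjusted p under 0.05 was called. SE is the log2 fold change over the square root of F. CPM uses TMM-scaled totals, and total counts of 16412779 to 31077588 set the precision. Amplified reads are not independent molecules, so the floor of 3 counts covers counting error only. Alternatives were RLE factors, no scaling, no filter, DESeq2 1.42.0, a replicate block and leaving out each library. Fits of only the groups compared, and fits without TBI replicate 6 and CD45 RIT replicate 2, were added after seeing the data. The fitting step was tested on simulated counts.

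Members and lists were chosen with earlier results of these data known. Named genes were, in each role, up to 4 members with the smallest adjusted p against untreated, with Slc4a1, Gata1, Klf1, Epor and members of opposite sign to their role. Others are given by counts and values.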

Additional observations from a re-analysis of the deposited data

Results flagged for a closer look

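Single libraries lay far from the rest of their group for 33 of the 74 groups of values examined, each being 1 member in the untreated or the TBI libraries. Chance flags about 1 in 20 groups of independent values with a normal spread. The members share the same libraries and were examined as CPM without a log, so the flags are not separate events to set against that rate. TBI replicate 6 accounted for 30 of the 33, always as the highest library. Among skeleton genes it had 7550 CPM of Slc4a1, 887 of Sptb, 234 of Ank1, 1300 of Epb41, 906 of Epb42, 612 of Add2, 351 of Dmtn and 430 of Tmod1. Among surface proteins it had 1690 CPM of Rhag, 3040 of Rhd, 849 of Kel and 410 of Icam4. Among regulators it had 1490 CPM of Klf1, 192 of Tal1, 949 of Nfe2, 362 of Zfpm1 and 449 of Lmo2, and it had 422 CPM of Epor. Among late maturation genes it had 1530 CPM of Trim10, 76.7 of Trim58, 5850 of Tmcc2, 1510 of Bpgm, 16300 of Car2, 1210 of Hemgn, 1220 of Xpo7, 826 of Bnip3l, 260 of Plek2, 613 of Tspo2, 693 of Fam210b and 440 of Ube2o. Slc4a1 in this library was 3.42 times the highest of the other TBI libraries. It was the only TBI library with a library number of 10 or more, and the part of this number was not tested.

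In untreated libraries, replicate 2 was low for Tmod1, at 14.2 CPM against 37.8 to 40.5 in the others, and for Kel, at 97.7 CPM against 177 to 192. Untreated replicate 4 was high for Epor, at 121 CPM against 104 to 106.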

How the results depend on the processing

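Counts of members called depended on the libraries in the fit. Leaving out 1 library at a time gave 1 to 27 calls in TBI, 11 to 36 in IgG RIT and 7 to 27 in CD45 RIT against untreated, 6 to 33 in CD45 RIT against IgG RIT, 5 to 31 in CD45 RIT against TBI and 0 to 13 in IgG RIT against TBI. The counts rose most without either of the CD45 RIT libraries, where the share of all genes called moved as well, and the cause was not tested. In the fit of all libraries that share was, in the same order, 4.31%, 16.4%, 33.1%, 37.7%, 38.6% and 0.242%. With only the groups compared the counts of members were, in that order of the first 5, 28, 35, 5, 3 and 2. The shares of all genes were then 17.5%, 35.8%, 19.9%, 12.9% and 30.7%. Without TBI replicate 6 and CD45 RIT replicate 2, 28 members were called in TBI against untreated (12% of genes). In IgG RIT against TBI 34 were called (23.5% of genes). In IgG RIT against untreated 36 were called, and the share of all genes is not given here. That fit leaves a single CD45 RIT library, so its CD45 RIT counts are not given. DESeq2 called 13 in TBI and 1 in IgG RIT against TBI. Replicate numbers did not pair the libraries: deviations of the 13 same-numbered pairs correlated at -0.09 to 0.139, with 1 above 0.1. The replicate block gave 0 calls in TBI and 2 in IgG RIT against TBI. Shares of all genes called are not given here for DESeq2 and the block.

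Among single genes, 22 values turned sign and 48 lost their call with 1 library, or the 2 libraries that stood apart, left out. With the other settings 16 turned sign and 15 lost their call. Bcl11a in TBI, at 0.00, was 0.10 with RLE factors, no filter, DESeq2 or only the 2 groups, 0.29 with the replicate block, 0.21 without the 2 libraries that stood apart, and -0.16 to 0.16 with 1 left out. Nfe2 in TBI was -0.30 with the block. In CD45 RIT, leaving out 1 library gave -0.87 to 3.37 for Slc4a1, -2.24 to 2.65 for Tmod1, -3.48 to 0.18 for Aqp1, -4.65 to 1.96 for Rhag, -0.35 to 2.02 for Slc2a1, -10.45 to 1.39 for Icam4, -0.13 to 0.28 for Tal1, -4.02 to 0.85 for Zfpm1, -1.51 to 1.00 for Epor, -4.71 to 4.66 for Plek2, -11.11 to 0.41 for Ermap and -10.84 to 1.02 for Nfe2. The extremes came from leaving out CD45 RIT replicate 1 or 2, and the large negative ones rest on 1 to 3 counts for Icam4, Plek2, Ermap and Nfe2. Without the 2 libraries that stood apart, Aqp1 was 0.18, Slc2a1 -0.35, Zfpm1 0.85 and Ermap 0.41. Without scaling factors Icam4 was -0.34, Tal1 -0.59, Epor -0.48 and Nfe2 -0.71. With the block Icam4 was -0.05 and Nfe2 -0.67. Zfpm1 was 0.11 with RLE factors and 0.10 with DESeq2, and Nfe2 -0.02 with no filter or only the 2 groups. The cause of these turns was not tested.

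Leaving out scaling shifted the median of all genes by -0.12 in TBI, -0.52 in IgG RIT and -0.71 in CD45 RIT against untreated. The share of called genes that were higher moved from 35% to 14.5% in IgG RIT and from 43.8% to 22.7% in CD45 RIT. CD45 RIT replicate 2 had at most 3 counts for 13 of the 37 members, at a total of 26823379 counts. Fold changes of those members that rest on this library are imprecise.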
